A study of Mus musculus with 6 samples.

Results

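The lysosomal genes described here are the proton pump that acidifies the organelle, the hydrolases that work inside it, and the membrane proteins, cofactors and regulators that go with them. They are the rows of the count table whose symbol names a subunit of the vacuolar ATPase (V-ATPase), an accessory subunit (Atp6ap1, Atp6ap2) or a cathepsin with a 1-letter name, together with 33 listed symbols, and they came to 76 of the 24391 genes in the table. Of these, 25 belong to the V-ATPase, 36 are hydrolases and 15 are other members. Transcripts were counted in 6 libraries of poly(A) RNA from Neuro2a cells, a mouse neuroblastoma line. The 3 control libraries came from cells given vehicle and the 3 D-serine libraries from cells given 5 mM D-serine, the mirror-image form of L-serine. All cells of both groups were moved to a medium labelled D-MEM(-SG) with fetal bovine serum for the 18 h of treatment. The labels number the replicates but do not say whether they are separate cultures, so p-values measure the spread between these samples, which may be technical.

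Lysosomes degrade proteins, glycans, lipids and nucleic acids in an acidic lumen. The V-ATPase couples ATP hydrolysis in its cytosolic V1 sector to proton transport through its membrane-embedded V0 sector, and also takes part in the sensing of amino acids at the lysosomal surface. The transcription factors TFEB, TFE3 and MITF bind a DNA element called CLEAR, present near many lysosomal genes, and are held in the cytosol by the kinase complex mTORC1 when amino acids are plentiful.

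Total counts per library lay between 32518483 and 40024265. D-serine replicate 1 stood apart from the other libraries in its dependence on gene length: the slope of its log2 deviation from the gene means was -0.072 per log2 of length, against -0.0040 to 0.036 in the other 5. Over all 13366 genes tested, 1302 had an adjusted p under 0.05 (edgeR quasi-likelihood test with Benjamini-Hochberg adjustment), which is 9.74%. That count was 125, 68 and 453 without control replicate 1, 2 or 3 and 291 without D-serine replicate 3. Markers of the sympathoadrenal lineage were present, with Hand2 at 242 ± 5.23 CPM in control (CPM, counts scaled to library size, mean ± SD, n = 3) and Chga at 121 ± 5.99 CPM, whereas Nefl and Nefm, also fixed as markers, had 2 and 17 counts in all 6 libraries. Of 7 macrophage and microglia markers, Adgre1 and C1qa had no count in any library, and the summed level of the list was 0.806 to 0.868 CPM in control and 0.408 to 0.680 CPM with D-serine. Csf1r, with 3 to 19 counts per library, held 0.438 of a mean 0.827 CPM in control and 0.123 of 0.512 CPM with D-serine. It did not pass (-1.8 on the log2 scale, edgeR adjusted p = 0.0601), and Tyrobp, the other tested marker, gave 0.37 (adjusted p = 0.692). Of 5 fibroblast markers 3 were tested and Pdgfrb fell (-0.37 on the log2 scale, edgeR adjusted p = 0.037). Pdgfra gave -0.033 and Dcn 0.36, and neither passed (adjusted p = 0.927 and 0.569). Col1a1 and Col1a2 had 47 and 10 counts in all 6 libraries and were not tested. The summed fibroblast list lay between 25.2 and 29.4 CPM in control and between 19.0 and 25.3 CPM with D-serine. Most of this sum was Pdgfrb, at 21.9 of a mean 27.8 CPM in control and 17.0 of 22.8 CPM with D-serine. Pdgfrb was past the threshold no longer without control replicate 1, 2 or 3 or D-serine replicate 3, at adjusted p-values of 0.0582, 0.143, 0.106 and 0.0604. The part of these markers in the results below was not tested, and in bulk RNA fewer cells of a type and less RNA per cell cannot be told apart.

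CLEAR letters were looked for in the promoters of the members, as the element that ties these genes together in textbooks. RefSeq windows of 300 bases, from 250 before to 50 after an annotated start (GRCm38.p6), were found for 63 of the 76 genes, and the 13 others were Atp6v0a2, Atp6v0c-ps2, Atp6v0d2, Atp6v1b2, Atp6v1c1, Atp6v1g1, Atp6v1h, Asah1, Ctsb, Ctse, Ctsh, Ctsw and Hgsnat. The letters TCACGTGA, the core of the CLEAR consensus and the same on both strands, occurred in 9 of the 63 genes (14.3%), against 304 of 27025 genes with windows of the same length (1.12%). The 9 were Atp6v0d1, Atp6v0e, Atp6v1a, Cln3, Ctsa, Ctsd, Gla, Mcoln1 and Tmem55b. The full consensus, the same letters with a G before and a C after, was in Cln3 alone (1 of 63, 1.59%, against 0.370% of all genes). The shorter E-box CACGTG, contained in both, was in 16 of the 63 (25.4%, against 8.09% of all genes). A match describes the letters of the window and shows no binding. The genes of the comparison were matched for window length only, not for expression or base composition. The part of expression and base composition in these shares was not tested.

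Promoters of members past the threshold were to be shown, but among those with TCACGTGA only Ctsd passed. Shown instead are the 4 members with the highest control level among those with TCACGTGA before the start. They include Ctsd, the member whose transcript fell, beside 3 whose transcripts did not pass the test. Each is the 250 bases before the RefSeq start, written in the direction of transcription, with TCACGTGA and any other CACGTG in capitals. Ctsd lies at chr7:142387828-142388077 on the minus strand, Atp6v1a at chr16:44139260-44139509 on the minus strand, Mcoln1 at chr8:3500269-3500518 on the plus strand and Ctsa at chr2:164833523-164833772 on the plus strand, all in GRCm38.p6.
Ctsd: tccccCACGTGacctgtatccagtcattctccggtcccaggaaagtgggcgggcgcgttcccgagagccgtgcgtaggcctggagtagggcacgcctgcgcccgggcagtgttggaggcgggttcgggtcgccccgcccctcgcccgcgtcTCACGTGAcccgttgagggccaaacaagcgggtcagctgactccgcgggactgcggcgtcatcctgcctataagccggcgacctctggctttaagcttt
Atp6v1a: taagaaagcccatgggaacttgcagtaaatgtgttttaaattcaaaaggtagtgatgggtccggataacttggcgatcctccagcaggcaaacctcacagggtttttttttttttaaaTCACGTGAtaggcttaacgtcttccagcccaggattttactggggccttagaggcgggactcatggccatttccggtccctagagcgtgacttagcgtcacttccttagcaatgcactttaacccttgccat
Mcoln1: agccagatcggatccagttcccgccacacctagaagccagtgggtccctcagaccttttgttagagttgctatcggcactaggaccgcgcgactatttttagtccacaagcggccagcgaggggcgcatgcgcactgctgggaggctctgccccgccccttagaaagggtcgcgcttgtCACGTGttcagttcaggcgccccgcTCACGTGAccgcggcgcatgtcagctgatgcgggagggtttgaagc
Ctsa: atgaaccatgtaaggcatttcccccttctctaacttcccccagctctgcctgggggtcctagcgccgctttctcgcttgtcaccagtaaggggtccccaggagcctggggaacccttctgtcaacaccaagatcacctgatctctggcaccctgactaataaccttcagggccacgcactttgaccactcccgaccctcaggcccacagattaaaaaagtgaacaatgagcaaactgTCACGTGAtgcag
The core begins 99 bases before the start in Ctsd, 132 in Atp6v1a, 46 in Mcoln1 and 13 in Ctsa, and the Ctsd and Mcoln1 windows each hold 1 further CACGTG. These 4 genes gave log2 fold changes of -0.23 (Ctsd), -0.052 (Atp6v1a), -0.024 (Mcoln1) and 0.081 (Ctsa). Ctsa shares exonic bases with Neurl2 (325) and Pltp (495) on the opposite strand, so its count is uncertain where strand was not used.

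Transcript levels were compared between genes per length, as TPM, a measure scaled by gene length and by the library total, computed from the deposited counts and exon lengths. Sqstm1, an autophagy receptor, was the most abundant member at 1875 ± 27.8 TPM in control (SD, n = 3). Ctsd, an aspartic protease, followed at 520 ± 8.59 TPM, the membrane glycoprotein Lamp1 at 498 ± 1.48 TPM, and Psap, the precursor of the saposins that help lipid hydrolases, at 355 ± 7.46 TPM. The means of Ctsd and Lamp1 differed by more than their SDs in control, at 520 and 498 TPM, and stood in the other order with D-serine, at 440 ± 13.1 and 482 ± 13.4 TPM.

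The cathepsins expressed here were few. Ctsd, Ctsz, Ctsb, Ctsl and Ctsa had control means between 32.6 and 520 TPM, and Ctso had 4.23 TPM. Ctsc, Ctse, Ctsg, Ctsm, Ctsr and Ctss had no count in any library, which allows up to 0.0135 CPM (3 counts of the 222850489 counts of all libraries). Of these, Ctss and Ctsg are known from antigen-presenting and myeloid cells, and Ctsm and Ctsr from the placenta. Ctsj, Ctsh and Ctsw were below the expression filter, and Ctsf, Ctsk and Ctsq passed it at control means of 0.519 to 1.67 TPM.

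Each V1 subunit was carried by 1 dominant gene. Atp6v1g1 (307 ± 13.3 TPM in control, SD, n = 3) and Atp6v1b2 (294 ± 2.85 TPM) were the most abundant and their SDs overlapped, and Atp6v1a, Atp6v1c1, Atp6v1d, Atp6v1e1, Atp6v1f and Atp6v1h lay between 136 and 166 TPM. The alternative isoforms, known mainly from kidney, testis or brain, were minor. Atp6v1b1 made up 0.184% ± 0.037 of the B subunit TPM in control, Atp6v1c2 0.494% ± 0.31 of C, Atp6v1e2 0.571% ± 0.22 of E and Atp6v1g2 1.30% ± 0.35 of G, and with D-serine these shares were 0.187% ± 0.013, 0.863% ± 0.16, 0.463% ± 0.12 and 1.15% ± 0.11. Their libraries overlapped between the groups for B, C, E and G. The kidney isoforms Atp6v1g3 and Atp6v0d2 (the latter also known from osteoclasts) had no count.

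In V0, Atp6v0b, which encodes a proteolipid of the membrane ring, was the most abundant at 335 ± 8.75 TPM, then Atp6v0d1 at 241 ± 1.66 and Atp6v0e at 132 ± 6.30 TPM. Atp6v0a2 gave 12.4% ± 0.72 of the TPM of the a subunit pair with Atp6v0a1 in control and 12.3% ± 0.45 with D-serine. Atp6v0e2 gave 32.5%, 32.0% and 33.01% of the e subunit pair with Atp6v0e in control replicates 1 to 3 and 30.4%, 31.1% and 31.0% with D-serine. These shares of Atp6v0e2 did not overlap between the groups, although neither gene passed the test on its own. The genes differ in length, at 796 bases for Atp6v0e and 1834 for Atp6v0e2, and D-serine replicate 1 had the lowest share. Their log2 fold changes were 0.064 and -0.048, and -0.027 and -0.087 with the length trend of each library removed. The part of gene length in these shares was not tested.

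Atp6v0c, the main proteolipid of the ring, could not be measured. It had 1 to 5 counts per library. The table places it and Atp6v0c-ps2, named as a pseudogene, on the same strand of chromosome 17 with 1117 shared exonic bases, which is 97.05% of the 1151 bases of Atp6v0c, and Atp6v0c-ps2 had no count. How reads that fall on several genes were counted is not given in the sources used here, so these low counts are not a level, and the V-ATPase sums below lack this subunit.

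**Figure D1:**
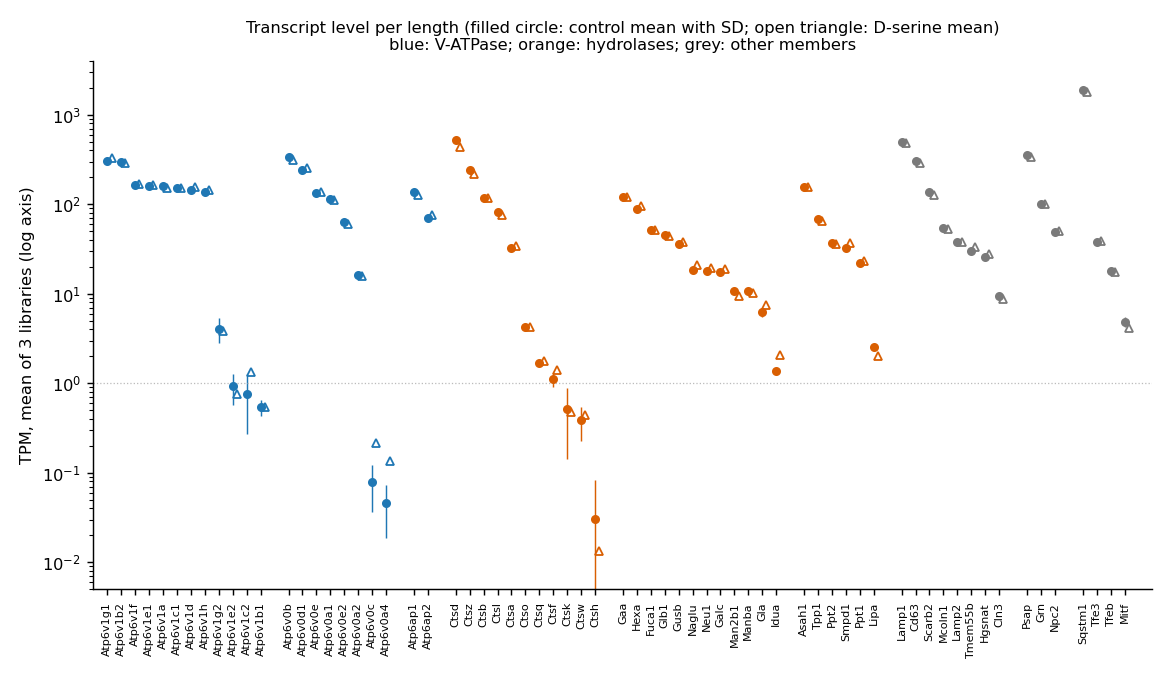
Mean TPM of 3 control libraries (filled circles, with SD) and of 3 D-serine libraries (open triangles) on a log axis, for the 66 members with a count in a control library, ordered by level within each class. Sqstm1 stands highest at 1875 TPM, the dominant V1 genes lie together between 136 and 307 TPM, and the circle and triangle of most genes nearly coincide.

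Whether D-serine changed these transcripts was tested gene by gene. Of the 76 members, 14 had too few counts to be tested, among them Atp6v0c, whose counts are not a level. Of the 62 tested members 1 passed the threshold, Ctsd, which fell. That is 1.61% of the tested members, beside 9.74% of all tested genes (4.84% higher and 4.90% lower). No member rose in edgeR or limma-voom, and DESeq2 called 1 higher (Idua, adjusted p = 0.0354). Under upper quartile scaling and with library totals 4 members were higher (Idua, Naglu, Smpd1 and Tmem55b). At an unadjusted p under 0.05 there were 13 members, 8 higher and 5 lower, which is 21.0%, beside 28.2% of all genes. Control and D-serine libraries were fully separated in 14 members (22.6%), 9 higher and 5 lower, beside 32.9% of all genes. The median log2 fold change of the 62 was 0.0066 and the median of all tested genes 0.0053. For 47 of the 62 the 95% interval of the log2 fold change lay within ±0.32, that is within a 1.25-fold change in either direction, a limit chosen after the data were seen. Over all tested genes it was 7459 of 13366. The tested members had a higher median level (49.8 against 29.2 CPM) and a smaller median SE (0.057 against 0.072) than all tested genes.

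**Figure D2:**
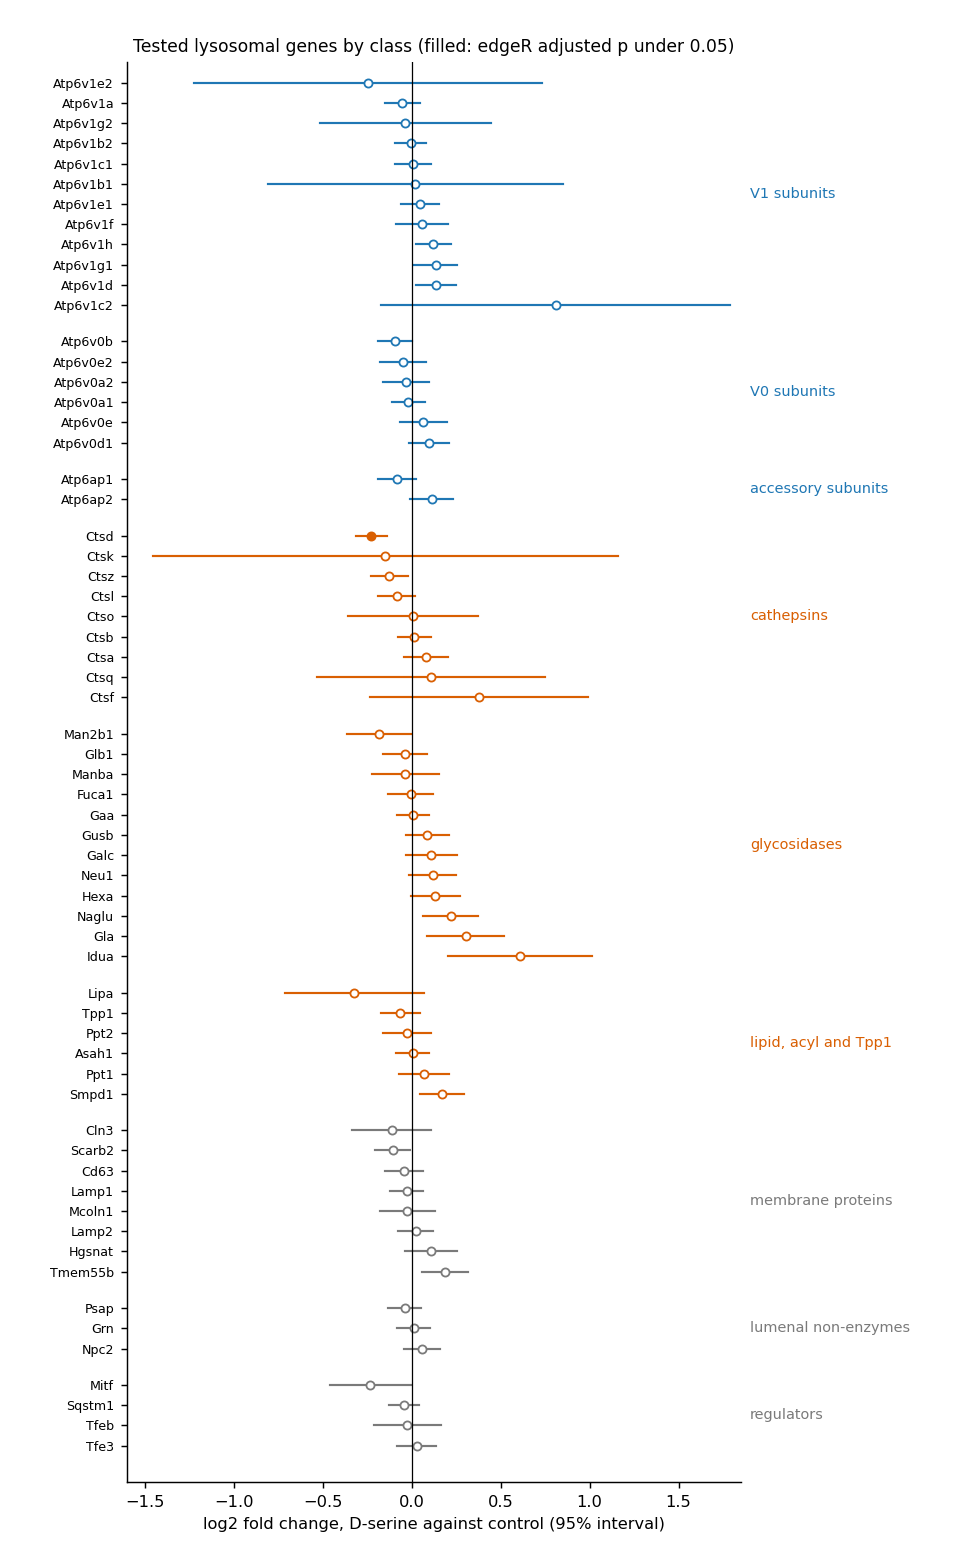
Log2 fold change of D-serine against control (horizontal axis) with its 95% interval for the 62 tested members, grouped by class, with V-ATPase genes in blue, hydrolases in orange and other members in grey. Ctsd, at -0.23 with an interval from -0.31 to -0.14, is the only filled point, and the wide intervals belong to genes of low level such as Atp6v1c2, Atp6v1e2 and Ctsk.

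Ctsd encodes cathepsin D, the main aspartic protease of lysosomes (chromosome 7, 149561821 to 149573775, minus strand, coordinates as in the table, whose build it does not name). These coordinates do not match the GRCm38.p6 window of Ctsd given above, so the positions cannot be compared. The level of Ctsd was 418, 424 and 443 CPM in control replicates 1 to 3 and 367, 369 and 364 CPM in D-serine replicates 1 to 3. All 3 D-serine libraries lay below all 3 control libraries. The means were 429 ± 13.2 and 367 ± 2.49 CPM (SD, n = 3 each), and the fitted level fell by 14.5% (log2 fold change -0.23, SE 0.040, edgeR adjusted p = 0.00967). DESeq2 gave an adjusted p of 7.26e-05 and limma-voom 0.00824. Without control replicate 2 the log2 fold change was -0.23 but the adjusted p was 0.0583.

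The other cathepsins did not pass the threshold. Ctsz, a carboxypeptidase, had 139.6, 136 and 148 CPM in control and 136, 128 and 125 CPM with D-serine. Its libraries did not overlap, and its log2 fold change was -0.13 (SE 0.049, edgeR adjusted p = 0.116). Without D-serine replicate 1 it was -0.16 with an adjusted p of 0.0159, and it was -0.19 with the length trend of each library removed (adjusted p = 0.00225). Ctsl, a cysteine endopeptidase, likewise had no overlap, at 66.9, 70.04 and 66.9 CPM in control against 64.6, 64.9 and 62.9 CPM (log2 fold change -0.084, SE 0.048, edgeR adjusted p = 0.276). Ctsb, another cysteine protease, gave 0.016 with a 95% interval from -0.076 to 0.11, but shares 773 exonic bases with Fdft1 on the opposite strand, so its count is uncertain where strand was not used.

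Of the 12 glycosidases, which cleave sugars from glycoproteins, glycolipids and glycosaminoglycans, 8 had a log2 fold change above 0 and 4 below, and 0 passed the threshold in edgeR. At an unadjusted p under 0.05 there were 4 (33.3%, beside 28.2% of all genes), and DESeq2 called 1 and limma-voom 0. Their median log2 fold change was 0.0996, beside 0.0053 over all tested genes. In 5 of the 12 every D-serine library lay above every control library, beside 16.2% of all genes, and the other 7 overlapped.

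Idua, alpha-L-iduronidase of glycosaminoglycan breakdown, had 2.54, 2.48 and 2.63 CPM in control and 4.90, 3.64 and 3.13 CPM with D-serine. The D-serine libraries were all above control but spread widely, with replicate 1 the highest. The log2 fold change was 0.61 (SE 0.19, edgeR adjusted p = 0.0585), and DESeq2 called it at 0.0354. Idua shares 56 exonic bases with Dgkq on the opposite strand. The count was low, at 82 to 192 per library, and without D-serine replicate 1 the log2 fold change was 0.41 (adjusted p = 0.189).

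Gla, alpha-galactosidase A, had 8.65, 7.95 and 7.20 CPM in control and 9.56, 9.68 and 10.1 CPM with D-serine (log2 fold change 0.30, SE 0.10, edgeR adjusted p = 0.0723). Naglu, an enzyme of heparan sulfate breakdown, had 19.0, 19.2 and 18.9 CPM against 22.7, 20.4 and 23.4 CPM (0.22, SE 0.072, adjusted p = 0.0718). Both genes were without overlap and neither passed. Naglu passed without D-serine replicate 2, at an adjusted p of 0.0340 and a log2 fold change of 0.27. Neu1, a sialidase (log2 fold change 0.12, adjusted p = 0.223), and Gusb, beta-glucuronidase (0.088, adjusted p = 0.323), were also without overlap. Man2b1, an alpha-mannosidase, stood lowest of the class at -0.18 (SE 0.083, adjusted p = 0.168), and its libraries overlapped. Gaa, acid alpha-glucosidase and the most abundant glycosidase at 121 ± 1.16 TPM in control, gave 0.0076 with a 95% interval from -0.080 to 0.095.

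Of the 6 lipid and acyl hydrolases with the tripeptidyl peptidase Tpp1, 0 passed in edgeR, DESeq2 or limma-voom (9.74% of all genes in edgeR) and 1 had an unadjusted p under 0.05 (16.7%, beside 28.2% of all genes). That was Smpd1, acid sphingomyelinase, at 33.2, 32.3 and 34.5 CPM in control and 38.7, 37.6 and 36.3 CPM with D-serine, without overlap (log2 fold change 0.17, SE 0.057, edgeR adjusted p = 0.0758). Asah1, acid ceramidase and the most abundant of the class at 157 ± 2.65 TPM, gave 0.0055 with an interval from -0.087 to 0.098.

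None of the 20 tested V-ATPase genes passed the threshold in edgeR, DESeq2 or limma-voom, against 9.74% of all genes in edgeR. Their median log2 fold change was 0.015, with 11 above 0 and 9 below. At an unadjusted p under 0.05 there were 3 (15.0%, beside 28.2% of all genes), all V1 subunits with a log2 fold change above 0. Atp6v1h, a regulatory subunit, had 109, 116 and 114 CPM in control and 127, 121 and 122 CPM with D-serine, without overlap (0.12, SE 0.045, edgeR adjusted p = 0.102). Atp6v1d, part of the central stalk, had 81.9, 85.2 and 89.9 CPM against 98.4, 89.7 and 94.7 CPM, with an overlap between control replicate 3 and D-serine replicate 2 (0.14, SE 0.052, adjusted p = 0.110). Atp6v1g1, of the peripheral stalk, had 145, 135 and 145 CPM against 168, 144 and 155 CPM (0.13, SE 0.057, adjusted p = 0.140), and passed without D-serine replicate 2 (0.19, adjusted p = 0.0445). In all 3 genes D-serine replicate 1 was the highest library. With the length trend removed the log2 fold change was 0.091 for Atp6v1h, 0.073 for Atp6v1d and 0.053 for Atp6v1g1, at adjusted p-values of 0.0954, 0.240 and 0.392.

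The 6 tested V0 genes had a median log2 fold change of -0.026 and a range from -0.091 to 0.098. The intervals of all 6 lay within the 1.25-fold limit, beside 7459 of 13366 tested genes. Atp6v0b had 138, 144 and 139 CPM in control and 137, 129 and 129.8 CPM with D-serine, without overlap (-0.091, SE 0.044, edgeR adjusted p = 0.193). Without D-serine replicate 1 it was -0.12 with an adjusted p of 0.0498, and with the length trend removed -0.18 with an adjusted p of 0.00260. Of the accessory subunits, which help assembly and trafficking of the pump, Atp6ap1 gave -0.080 (SE 0.050, adjusted p = 0.315) and Atp6ap2, also called the prorenin receptor, 0.11 (SE 0.055, adjusted p = 0.203).

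**Figure D3:**
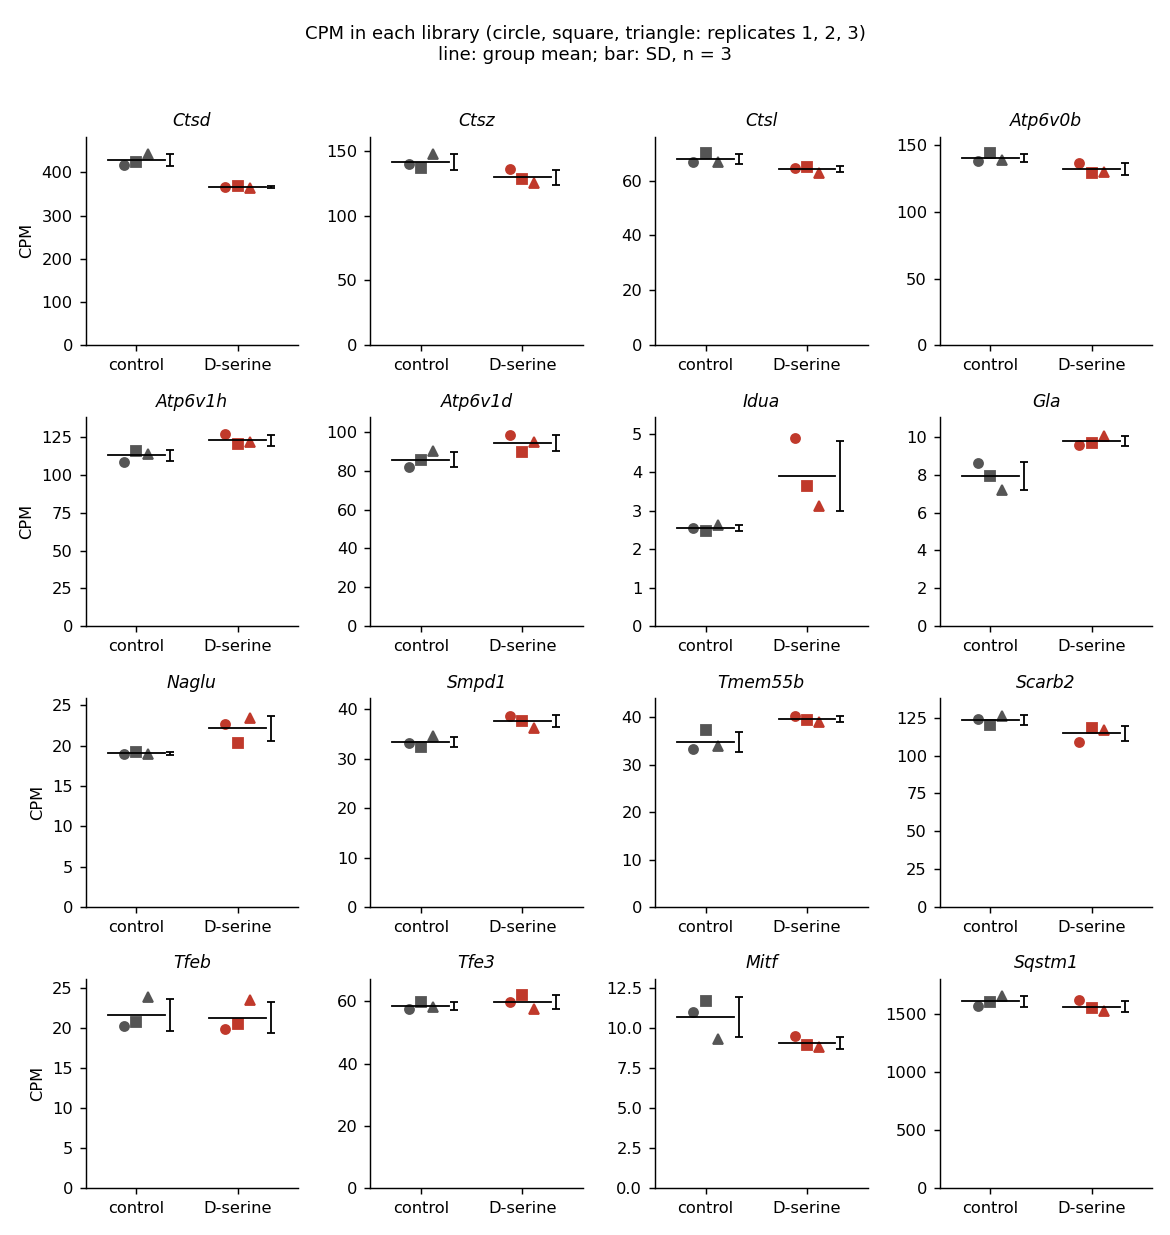
CPM of 16 members in each library, from 0, with control in grey and D-serine in red, symbols for replicates 1 to 3, the group mean as a line and the SD (n = 3) as a bar. Ctsd shows the clearest separation relative to its spread, Idua and Naglu are higher but scattered with D-serine, and Tfeb and Tfe3 overlap.

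The V-ATPase and the hydrolases were set against each other. The median log2 fold changes were 0.015 over 20 V-ATPase genes and 0.0076 over 27 hydrolases, a difference of 0.0076, and no test was made of a score over the members. The difference was below 0 without control replicate 3 (-0.0089), D-serine replicate 1 (-0.026) or D-serine replicate 3 (-0.0054), and with the length trend of each library removed (-0.036). It was 0.041 without D-serine replicate 2. The tested V-ATPase genes were shorter, with a median of 1725.5 bases against 2493 in the hydrolases. In D-serine replicate 1 the median log2 deviation of the V-ATPase genes from their means over all libraries (log2 of CPM plus 0.05) was 0.074, against -0.046 to 0.0058 in the other 5.

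**Figure D4:**
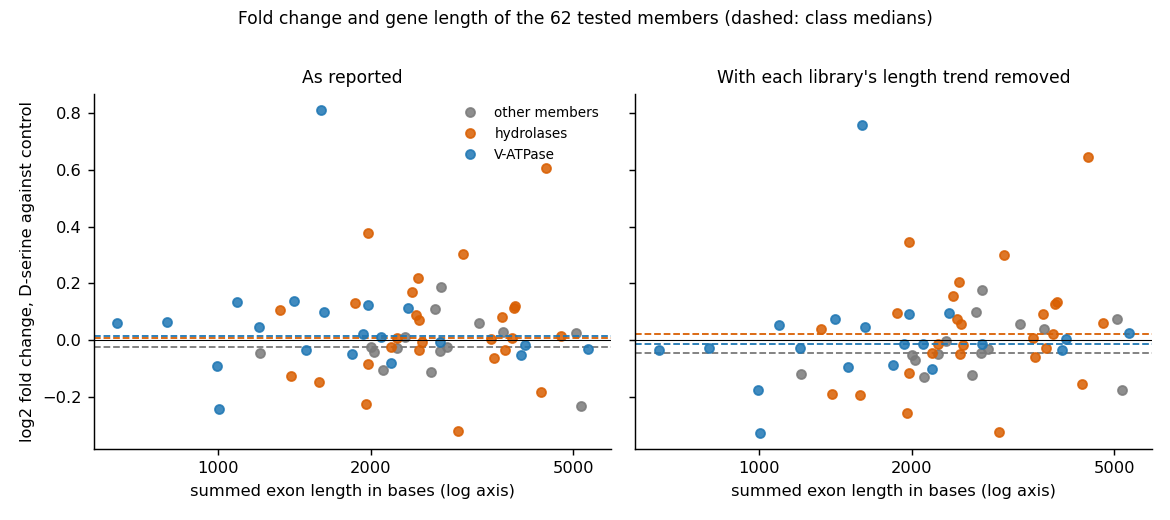
Log2 fold change of the 62 tested members against their summed exon length (log axis), as reported on the left and with each library's length trend removed on the right, with dashed lines at the class medians. The median of the V-ATPase genes moves from 0.015 to -0.015 and that of the hydrolases from 0.0076 to 0.021.

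Summed over genes, V-ATPase transcripts made up 2624, 2644 and 2647 TPM in control and 2704, 2649 and 2647 TPM with D-serine. The hydrolases summed to 1739.5, 1742 and 1757 TPM in control and to 1634, 1678 and 1637 TPM with D-serine. On this scale the hydrolase sums were lower in all D-serine libraries. In CPM, which is not divided by length, they overlapped, at 1773, 1798 and 1837 CPM in control and 1782, 1738 and 1724 CPM with D-serine. Ctsd alone held 29.6%, 29.6% and 30.2% of the hydrolase sum in control and 26.1%, 27.0% and 26.9% with D-serine. The ratio of V-ATPase to hydrolase TPM was 1.51, 1.52 and 1.51 in control and 1.65, 1.58 and 1.62 with D-serine, without overlap. With Ctsd left out of the sum the ratio was 2.141, 2.156 and 2.157 in control and 2.240, 2.163 and 2.212 with D-serine. The hydrolase sum was then 1225.4, 1226.2 and 1227.2 TPM in control and 1207, 1224.8 and 1197 TPM with D-serine. Both were without overlap in TPM. In CPM the hydrolase sum without Ctsd overlapped and had the higher mean with D-serine, at 1374 ± 19.4 in control and 1382 ± 29.4 with D-serine (SD, n = 3 each). The V-ATPase sums were 1999, 2033 and 2086 CPM in control and 2125, 2024 and 2048 CPM with D-serine. Taken in CPM, the ratio without Ctsd overlapped between the groups, and the ratio with Ctsd did not. The mean hydrolase sum in TPM went from 1746 to 1649.7 with Ctsd and from 1226.3 to 1209.7 without it.

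**Figure D5:**
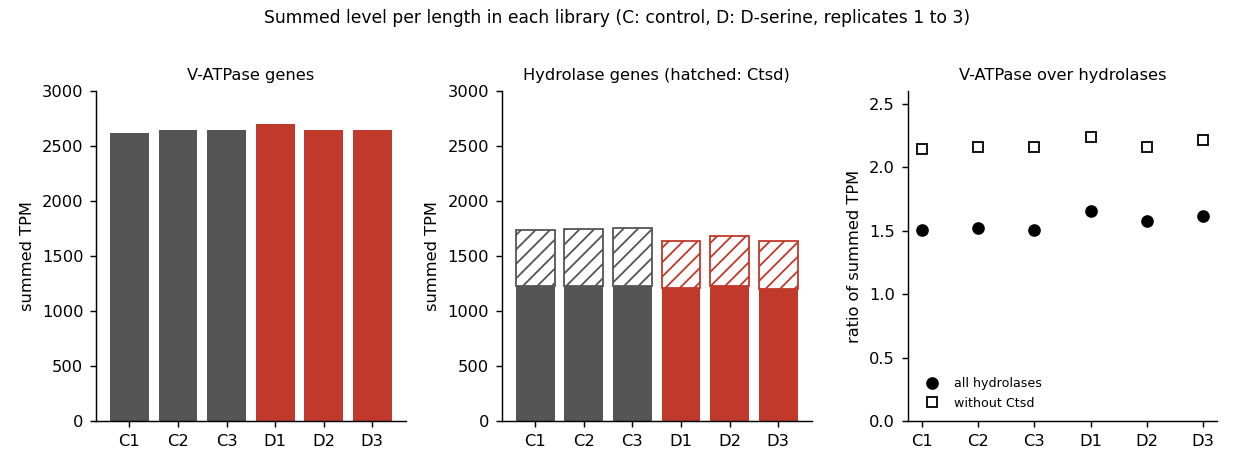
Summed TPM of V-ATPase genes (left) and of hydrolase genes (middle, with Ctsd hatched) and their ratio (right) in each library, with control replicates 1 to 3 as C1 to C3 and D-serine replicates as D1 to D3. The V-ATPase bars are level, the hatched Ctsd segment is shorter in D1 to D3, and the ratio moves from 1.51 or 1.52 to between 1.58 and 1.65.

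Of the 8 membrane proteins 0 passed in edgeR, DESeq2 or limma-voom, and 2 had an unadjusted p under 0.05 (25.0%, beside 28.2% of all genes). Tmem55b, a lysosomal membrane protein with a part in organelle positioning, had 33.2, 37.3 and 33.9 CPM in control and 40.4, 39.5 and 38.97 CPM with D-serine, without overlap (log2 fold change 0.19, SE 0.060, edgeR adjusted p = 0.0679). It shares 926 exonic bases with Apex1 on the opposite strand, 33.6% of its length, so its count is uncertain. Scarb2, the receptor that carries glucocerebrosidase to lysosomes, was lower without overlap (124, 119.9 and 126 against 109, 118 and 117 CPM, log2 fold change -0.11, SE 0.047, adjusted p = 0.154). Lamp1 gave -0.028 with an interval from -0.12 to 0.066, and Cd63, a tetraspanin, -0.044 from -0.15 to 0.062. With the length trend removed Cd63 was -0.12 (adjusted p = 0.0238), Scarb2 -0.13 (adjusted p = 0.0452) and Tmem55b 0.18 (adjusted p = 0.0410), all past the threshold. Lamp2, a relative of Lamp1, gave 0.024 from -0.075 to 0.12, and the lysosomal calcium channel gene Mcoln1 -0.024 from -0.18 to 0.13.

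The lumenal proteins without enzyme activity did not pass either, by any of the 3 tools. All 3 intervals lay within the 1.25-fold limit, beside 7459 of 13366 tested genes. Psap gave -0.039 and Grn, progranulin, 0.012. Npc2, which carries cholesterol out of the lumen, gave 0.058 (SE 0.046, edgeR adjusted p = 0.433), without overlap at 66.8, 68.2 and 67.6 CPM against 70.7, 70.8 and 69.5 CPM.

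The transcripts of the regulators did not pass in edgeR, DESeq2 or limma-voom, and 1 of 4 had an unadjusted p under 0.05 (25.0%, beside 28.2% of all genes). Tfeb had 20.2, 20.8 and 23.96 CPM in control and 19.9, 20.5 and 23.6 CPM with D-serine, with full overlap (log2 fold change -0.024, 95% interval -0.21 to 0.16, edgeR adjusted p = 0.892). Tfe3 had 57.5, 59.9 and 58.2 CPM against 59.8, 61.9 and 57.6 CPM, also overlapping (0.029, interval -0.080 to 0.14, adjusted p = 0.749). Mitf was scarcer, at 11.0, 11.7 and 9.30 CPM in control and 9.54, 8.92 and 8.84 CPM with D-serine (-0.23, interval -0.46 to -0.0059, adjusted p = 0.167). These factors are controlled mainly through phosphorylation and location, which transcript counts do not show. Sqstm1 gave -0.041 (interval -0.12 to 0.044, adjusted p = 0.531).

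Other genes of the pathway were taken from further lists. Of 15 tested other lysosomal enzymes 0 passed in edgeR (smallest adjusted p = 0.0726). An unadjusted p under 0.05 was found for 4 of them, 3 higher and 1 lower. Of 14 genes of mTORC1 and the Rag GTPases, which control TFEB, 0 passed (smallest adjusted p = 0.0551). Of these, 6 had an unadjusted p under 0.05, 2 higher and 4 lower. Of 20 other lysosomal membrane proteins 1 fell, of 12 genes of delivery to lysosomes 1 fell, of 20 autophagy genes 1 fell and of 10 genes of V-ATPase assembly 2 rose. In the same order, the genes of these lists with an unadjusted p under 0.05 numbered 2, 4, 5 and 5. Of those genes 1, 2, 1 and 4 were higher and the rest lower. Beside these stand 9.74% of all tested genes past the threshold (4.84% higher and 4.90% lower) and 28.2% at an unadjusted p under 0.05.

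Vma21, which encodes an assembly chaperone of the V0 sector (chromosome X, 69061419 to 69070045 as in the table), had 22.4, 23.8 and 23.3 CPM in control and 29.2, 28.8 and 30.95 CPM with D-serine. It rose without overlap (log2 fold change 0.35 with an SE of 0.063, edgeR adjusted p = 0.00977), and its adjusted p was 0.0551 without control replicate 1 and 0.0501 without control replicate 2. Tldc1, a TLDc domain gene listed with V-ATPase assembly (chromosome 8, 122284487 to 122302316), rose from 14.1, 15.1 and 14.6 CPM to 19.7, 17.1 and 19.1 CPM (0.35, SE 0.079, adjusted p = 0.0190). Its adjusted p lay between 0.0603 and 0.0807 without control replicate 1, 2 or 3 or D-serine replicate 3. The V-ATPase subunit genes themselves, as above, did not pass.

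Sort1, a sorting receptor for lysosomal proteins (chromosome 3, 108086982 to 108164437), fell from 185, 189 and 189.8 CPM to 142, 168 and 168 CPM, with D-serine replicate 1 the lowest (log2 fold change -0.24, SE 0.060, edgeR adjusted p = 0.0291). With the length trend removed it was -0.14 (adjusted p = 0.0143). Its adjusted p was 0.0818, 0.107 and 0.0836 without control replicate 1, 2 or 3 and 0.0514 without D-serine replicate 3. Tpcn1, a lysosomal cation channel (chromosome 5, 120984166 to 121038622), fell from 21.1, 20.8 and 18.3 CPM to 15.1, 16.6 and 16.2 CPM (-0.33, SE 0.080, adjusted p = 0.0254), and was at 0.101, 0.107 and 0.0712 without control replicate 1, control replicate 2 or D-serine replicate 3. Uvrag, an autophagy and endosome factor (chromosome 7, 106035253 to 106289654), fell from 141, 145 and 147 CPM to 126, 132 and 133 CPM (-0.15, SE 0.043, adjusted p = 0.0495), and lost its call in 9 of the 17 alternatives, among them upper quartile scaling (0.0936) and the omission of control replicate 2 (0.171).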

How the data were processed

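The deposited table holds unnormalized counts for each gene in 6 libraries, and exon lengths in bases. Per the submitters' processing notes, the authors used Trim Galore, HISAT2 and featureCounts (Subread). Those notes name GRCm38 and mm10, but 1 of the 76 members had the RefSeq GRCm38.p6 start in the table, so coordinates are given as deposited. Strand setting and treatment of reads on several genes are not given in the sources used here. Count columns were matched to samples by treatment and number.

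Counts were tested with edgeR 4.0.16 (filterByExpr, TMM scaling, quasi-likelihood F test, all 6 libraries, no covariate), with Benjamini-Hochberg adjustment over 13366 genes and a two-sided threshold of 0.05. The method was tested on simulated data. These were independent counts with known fold changes and no length trend, so they do not bear on the length trend of D-serine replicate 1. CPM uses TMM-adjusted library sizes. TPM was computed from counts and lengths and compares levels within libraries. SEs are the log2 fold change over the square root of F, and 95% intervals use the moderated degrees of freedom. Alternatives, 17 in all, used DESeq2 1.42.0, limma 3.58.1, other scalings and filters, the replicate block, a length spline with 5 degrees of freedom, and omission of each library.

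The length spline was first run in a form that also removed each library's mean trend. After its counts had been seen it was replaced by a centred form that keeps the TMM scaling, and the first form is kept as an alternative added after seeing the data.

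The members and lists were chosen with earlier results of these data known. Named with values were all members and list genes past the threshold, the most abundant member of each class, and Tfeb, Tfe3 and Mitf. The 5 members with an adjusted p between 0.05 and 0.1, those with an unadjusted p under 0.05, no overlap or a call under an alternative, the other genes given with values, the 1.25-fold limit, and the sums without Ctsd were chosen after seeing the data. Exons shared with other genes of the table were counted on either strand.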

Additional observations from a re-analysis of the deposited data

How the results depend on the processing

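Ctsd stayed lower and past the threshold in 16 of 17 alternatives, with adjusted p-values up to 0.0583 without control replicate 2. All genes past the threshold numbered 298 with the replicate block (178 higher, 120 lower) and 2043 with the length trend removed (1023 higher, 1020 lower). The lower genes numbered 412 under upper quartile scaling and with library totals, against 914 and 944 higher, and 987 with no filter on low counts. The form of the length correction that also removed library means, added after seeing the data, gave 2118 genes, 701 higher and 1417 lower, with a median over all genes of -0.022. The centred form was adopted after those counts had been seen. The omission of 1 library gave 68 to 1699 genes, 47 to 783 higher and 21 to 916 lower.

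Members higher numbered 1 with DESeq2 and with no filter (Idua), 4 under upper quartile scaling and library totals (Idua, Naglu, Smpd1, Tmem55b) and 2 with the length trend removed, with or without the block (Idua, Tmem55b). The hydrolases among them were 1, 1, 3, 3, 1 and 1. Members lower numbered 5 with the length trend removed (Atp6v0b, Cd63, Ctsd, Ctsz, Scarb2) and 4 with the block as well (without Scarb2), of which 1 was V-ATPase and 2 were hydrolases in both fits. With library means removed too, 1 member was higher (Idua, a hydrolase) and 7 were lower (Atp6ap1, Atp6v0b, Cd63, Ctsd, Ctsl, Ctsz, Scarb2), of which 2 were V-ATPase and 3 hydrolases. The omission of 1 library gave 0 to 2 members higher, 0 to 3 lower, 0 to 1 V-ATPase genes higher and 0 to 1 lower, and 0 to 1 hydrolases higher and 0 to 2 lower. With the replicate block alone Ctsd had an adjusted p of 0.0476, and Tldc1, Sort1, Tpcn1 and Uvrag were past the threshold no longer (0.0544, 0.0541, 0.059 and 0.110). The deviations of same-numbered libraries correlated at -0.069, 0.020 and -0.019, so the numbers were not taken as pairs. A call lost with the block is not read as a weaker effect, since the labels do not say that numbers pair the samples.

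Under upper quartile scaling and library totals the median log2 fold change of all genes was 0.035 and 0.035, and medians were 0.036 and 0.036 for members and 0.037 and 0.037 for hydrolases. The median of V-ATPase minus hydrolases was -0.036 in all 3 fits with the length trend removed. With library means removed too, medians were -0.040 for members and -0.041 for V-ATPase. With 1 library omitted, medians ran from 0.0028 to 0.023 (members), -0.0025 to 0.047 (V-ATPase), -0.00022 to 0.033 (hydrolases) and -0.026 to 0.041 (difference). Changes of sign near 0 occurred in Asah1 (-0.013 with the length trend removed, also with the block, -0.040 with library means removed too, and -0.015 to 0.022 with 1 library omitted), Lamp1 (0.0019 under upper quartile scaling and 0.0011 with library totals), Tfeb (0.0057 and 0.0054 in those scalings, -0.10 to 0.056 with 1 library omitted), Gaa (-0.0052 with library means removed too, -0.0071 to 0.019 with 1 library omitted), Ctsb (-0.010 to 0.033 with 1 library omitted), Grn (-0.0038 and -0.0039 with the length trend removed, without and with the block, and -0.030 with library means removed too) and Mcoln1 (0.0056 under upper quartile scaling, 0.0053 with library totals, -0.100 to 0.027 with 1 library omitted). Except where stated, the cause was not tested. Members below 1 CPM had intervals wider than the 1.25-fold limit.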
